A study of Homo sapiens with 13 samples.

Results

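The RUNX factors RUNX1, RUNX2 and RUNX3, their common partner CBFB and the ETO corepressors RUNX1T1, CBFA2T2 and CBFA2T3 were followed on 13 Illumina bead arrays of human embryonic stem cells driven toward blood. A probe belonged to the set when its deposited symbol was one of these 7 names, and each probe was described on its own. This gave 7 genes of the 30844 names on the array, with 21 probes. Of these, 10 were detected on at least 1 array, that is with a detection p below 0.01: 1 of 3 probes for RUNX1, 0 of 3 for RUNX2, 2 of 2 for RUNX3, 1 of 2 for CBFB, 3 of 5 for RUNX1T1, 2 of 3 for CBFA2T2 and 1 of 3 for CBFA2T3.

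RUNX factors bind DNA through the Runt domain, and CBFB, which does not touch DNA itself, stabilises that binding. RUNX1 is needed for definitive blood cells to emerge from haemogenic endothelium, RUNX2 is the master factor of bone, and RUNX3 acts in T cells and sensory neurons. The ETO proteins bind no DNA of their own and bring NCOR and SIN3 corepressors with histone deacetylases to transcription factors such as the TAL1 complex. RUNX1 and RUNX1T1 are the genes joined in the AML1-ETO fusion of acute myeloid leukaemia.

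All 13 samples came from the same HES3-derived line, RUNX1CGFPw, a GFP reporter of RUNX1C, the RUNX1 isoform made from the distal promoter. No array of cells without the reporter was analysed here, so the reporter allele is common to every group. The parent line had been kept on mouse feeder cells with FGF2, and cells were differentiated as spin embryoid bodies in the serum-free medium APEL. The differentiation medium held BMP4, VEGF and SCF throughout, together with activin before day 4 and with FGF2 and IGF2 after it. The label of the day 0 array names HES3 in the place where all other labels name growth factors. Unsorted cells gave 1 array for each day from 0 to 8. Cells of day 7 sorted on CD34 and CD41, surface markers of endothelium and of the earliest blood cells, gave 4 more arrays, 1 of CD34-CD41- cells, 1 of CD34lo CD41lo cells, and 1 each of CD41- cells with low (CD34lo CD41-) and with high CD34 (CD34hi CD41-). With 1 array per group there is no SD beside a level, and differences between fractions or single days carry no test.

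Sorted and unsorted cells lay on different chips, so chip and sorting cannot be told apart. Between 15134 and 17833 probes were detected per array. The labels of the fractions were checked against the genes of the sort markers. The brightest CD34 probe read 8.52 in CD34-CD41-, 10.58 in CD34lo CD41-, 12.88 in CD34hi CD41- and 10.06 in CD34lo CD41lo on the normalized log2 scale. CD41 is the product of ITGA2B, which was highest in CD34lo CD41lo (9.19). In bulk RNA fewer cells of a type and less RNA per cell cannot be told apart, which holds for every level below.

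Sequences upstream of RefSeq start sites (GRCh38.p14) were examined for 5 of the 7 genes, in 7 windows, and not for RUNX1T1 or CBFB. They are shown for RUNX1 and CBFA2T3, the pair of members that were highest in the CD34lo CD41lo fraction, and for RUNX3, whose distal window carries paired RUNX letters. Each run is the 250 bases before a start site, 5′ to 3′ on the gene's strand, with capitals on every match to one of these motifs on either strand. The letters searched for RUNX factors were TGTGGT and its variant TGCGGT. Those for GATA factors were AGATAA and its variant TGATAA, and those for ETS factors were CCGGAA. No motif of one kind overlaps another in these windows.
RUNX1, chr21:34888700-34888949, minus strand: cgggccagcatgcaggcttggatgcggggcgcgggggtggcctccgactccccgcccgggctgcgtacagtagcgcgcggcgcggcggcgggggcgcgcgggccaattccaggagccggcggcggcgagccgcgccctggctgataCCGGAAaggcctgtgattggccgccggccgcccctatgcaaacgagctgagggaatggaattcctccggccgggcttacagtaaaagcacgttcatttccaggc
CBFA2T3, chr16:88941351-88941600, minus strand: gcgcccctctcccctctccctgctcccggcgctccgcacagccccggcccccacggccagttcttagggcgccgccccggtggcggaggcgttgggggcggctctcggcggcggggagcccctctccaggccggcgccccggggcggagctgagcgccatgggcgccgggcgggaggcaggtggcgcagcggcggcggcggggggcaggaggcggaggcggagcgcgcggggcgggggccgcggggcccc
RUNX3, chr1:24965011-24965260, minus strand: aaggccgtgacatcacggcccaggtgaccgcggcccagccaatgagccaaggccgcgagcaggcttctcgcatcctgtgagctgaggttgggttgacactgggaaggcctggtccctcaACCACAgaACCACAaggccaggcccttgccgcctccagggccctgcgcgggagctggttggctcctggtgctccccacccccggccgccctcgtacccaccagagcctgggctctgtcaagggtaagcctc
The RUNX1 window lies 160603 bases inside the gene's annotated 5′ end, so it belongs to an inner start site and not to that of RUNX1C. It holds CCGGAA from -104 to -99 and no RUNX or GATA letters. The CBFA2T3 window also belongs to an inner start site, 35857 bases inside the gene's annotated 5′ end. It holds none of these letters, and with a GC content of 83% over 300 bases it stands above 99.2% of all windows. Over windows of 300 bases, 250 before and 50 after the start, 19.6% of 34796 held RUNX letters, 16.4% GATA letters and 17.2% ETS letters.

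The RUNX3 window has ACCACA, the reverse complement of TGTGGT, at -131 to -126 and again at -123 to -118. The same 18 bases around this pair stand in the distal RUNX2 window, and are shown because no window other than these 2 of 34796 has them.
RUNX3, chr1:24965126-24965143, minus strand: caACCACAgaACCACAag
RUNX2, chr6:45328344-45328361, plus strand: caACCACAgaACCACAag
In RUNX2 this stretch begins at base 15, with the start site counted as base 1. The array measures RNA and not binding, so these matches describe the letters alone.

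RUNX1 stood below its detection limit until day 4 and was detected on every day from 5 to 8. Its probe ILMN_1801504 read 4.71, 4.53, 4.45, 4.67, 5.01, 6.53, 6.32, 5.94 and 5.66 from day 0 to day 8, as normalized log2 levels. Levels on days 0 to 4 were therefore bounds only, day 5 was the highest of the unsorted days, and each later day was lower than the one before. From day 4 to day 5, the day after the change of medium, the level was at least 2.34-fold higher, counting the undetected side at the detection floor, which is the lowest normalized level among the detected probes of that array.

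The curve of RUNX1 over the 9 days departed from a flat line (limma moderated F test on a natural spline, adjusted p = 0.00128). None of the 3 fitted changes passed the call, which needed an adjusted p below 0.05 and a 2-fold change. The fitted change was 0.63 ± 0.29 from day 0 to day 4, 0.17 ± 0.29 from day 4 to day 8 and 0.80 ± 0.34 from day 0 to day 8 (log2, SE from the departure of single days from the curve). Days 0 and 4 were both below detection, reading 4.71 and 5.01 against 4.79 and 5.41 on the fitted curve. From day 0 to day 8 the change passed on the scale of the authors' matrix values (1.75, limma adjusted p = 0.0387) and with a spline of 2 degrees of freedom (1.82, adjusted p = 0.0157).

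In the sorted cells of day 7 RUNX1 was highest in CD34lo CD41lo and below detection in CD34-CD41-. The probe ILMN_1801504 read 4.90 in CD34-CD41- cells, where it was not detected, 8.20 in CD34lo CD41-, 8.70 in CD34hi CD41- and 9.71 in CD34lo CD41lo. The 3 fractions with CD34 were all above the unsorted cells of day 7 (5.94), and the CD34-CD41- fraction was below them. Against CD34-CD41- cells RUNX1 was at least 7.50-fold higher in CD34lo CD41-, at least 10.6-fold in CD34hi CD41- and at least 21.4-fold in CD34lo CD41lo. On the log2 scale these bounds were 2.91, 3.41 and 4.42, and they came to 2.24, 2.70 and 3.66 without background correction and to 3.81, 4.34 and 5.36 with the authors' matrix values. CD34lo CD41lo cells were 2.85-fold above CD34lo CD41- and 2.01-fold above CD34hi CD41- cells, and the step from CD34lo CD41- to CD34hi CD41- was under 2-fold. The difference between CD34lo CD41lo and CD34hi CD41- lies at the 2-fold limit and came to 0.96 log2 units without background correction.

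The other RUNX1 probes, ILMN_1730797 and ILMN_1669335, were not detected on any of the 13 arrays. Their levels ran from 4.35 to 4.77 and from 4.26 to 4.77. They read background on the same arrays on which ILMN_1801504 had a deposited intensity of up to 978.7. The sources used here do not say which RUNX1 transcripts each probe reads, so no isoform is assigned.

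**Figure D1:**
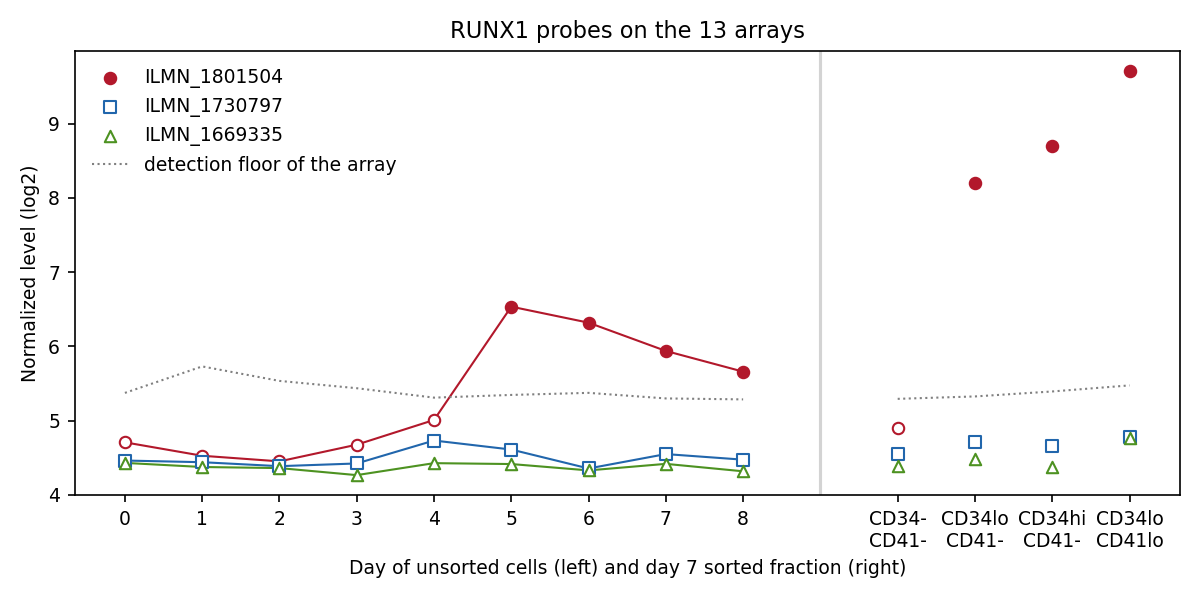
Normalized log2 level of the 3 RUNX1 probes on the 9 unsorted days (left, joined by lines) and in the 4 day 7 fractions (right). Filled symbols were detected, open symbols were not, and the dotted line is each array's detection floor: ILMN_1801504 rises above it from day 5 and reaches 9.71 in CD34lo CD41lo, while the other probes stay below it throughout.

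RUNX2 was not detected at any day or in any fraction. The levels of its probes ILMN_2377746, ILMN_1716651 and ILMN_1669066 lay between 4.28 and 5.39, and the highest deposited intensity was 23.8. These values set a bound and do not show that the gene was silent.

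RUNX3 had its highest level on day 2. Its probe ILMN_1787461 read 5.79, 5.40, 7.22, 6.74, 6.07, 5.94, 5.03, 5.26 and 6.0 from day 0 to day 8. It was not detected on days 1, 6 and 7. The level on day 2 was at least 2.81-fold above day 1, and it was lower on each day from then to day 6. This trend did not pass (limma adjusted p = 0.0607), but passed without background correction (adjusted p = 0.0496), without the array of day 0 (0.0138) and without that of day 1 (0.00652). In the fractions RUNX3 read 6.06 in CD34-CD41-, 6.19 in CD34lo CD41-, 6.26 in CD34hi CD41- and 6.05 in CD34lo CD41lo. It was detected in all 4 and differed by less than 2-fold between any pair. All 4 levels stood above that of the unsorted cells of day 7 (5.26, not detected), which lay on another chip. The second RUNX3 probe, ILMN_1751839, lay between 4.48 and 5.32 and was detected on day 4 and in CD34-CD41- cells alone, so it did not show the peak of day 2.

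CBFB was detected on all 13 arrays. The probe ILMN_1766408 read 7.91 on day 0 and 7.84 on day 1, and then 8.76, 8.64, 8.76, 9.01, 8.75, 8.94 and 8.91 from day 2 to day 8. The first 2 days lay below the 7 later ones, which stayed close together. The fitted rise was 1.04 ± 0.26 from day 0 to day 4 (log2, SE, limma adjusted p = 0.0258) and 1.13 ± 0.30 from day 0 to day 8 (adjusted p = 0.0219), with an adjusted p of 0.0205 for the trend. Both rises sit just past the 2-fold limit. The first fell short of the call without background correction (0.95), with a spline of 2 degrees of freedom (0.99) and when the array of day 0, 1, 2, 3 or 5 was left out (fitted changes of 1.58, 0.90, 0.97, 1.08 and 0.98), and the second without day 0, 1 or 8 (1.64, 0.98 and 1.12). The trend had an adjusted p of 0.0527 without day 0, 0.0547 without day 7 and 0.0518 without day 8.

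In the fractions CBFB read 8.93 in CD34-CD41-, 9.05 in CD34lo CD41-, 9.07 in CD34hi CD41- and 8.70 in CD34lo CD41lo. The partner thus had about the same level in cells in which RUNX1 ranged from undetected to 9.71, and no pair was 2-fold apart. The second CBFB probe, ILMN_2399489, was not detected on any array (4.55 to 5.14).

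RUNX1T1, also called ETO, dipped on day 2 and was highest on day 6. Its brightest probe, ILMN_1812795, read 7.52, 6.94, 6.29, 6.96, 7.43, 7.92, 8.36, 8.29 and 8.0 from day 0 to day 8 and was detected on every array. The trend passed (limma adjusted p = 0.000762), but had an adjusted p of 0.0556 with a spline of 2 degrees of freedom. That fit did call a rise from day 0 to day 8 (1.47, adjusted p = 0.0254), whereas no interval passed with 3 degrees of freedom: the change was -0.12 ± 0.23 from day 0 to day 4, 0.64 ± 0.23 from day 4 to day 8 (adjusted p = 0.134) and 0.51 ± 0.27 from day 0 to day 8. The low point of RUNX1T1 and the high point of RUNX3 fell on the same array, that of day 2.

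A second RUNX1T1 probe, ILMN_1710522, read 5.75, 5.97, 5.65, 5.02, 4.81, 5.96, 6.10, 5.61 and 5.62 over the days, with days 3 and 4 below detection. It had its low point later than ILMN_1812795 and no trend that passed (limma adjusted p = 0.418). In the fractions both probes were highest in CD34hi CD41- cells. ILMN_1812795 read 8.08 in CD34-CD41-, 8.76 in CD34lo CD41-, 9.38 in CD34hi CD41- and 7.78 in CD34lo CD41lo. ILMN_1710522 read 4.82 (not detected), 6.85, 7.78 and 6.58 in the same order.

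By ILMN_1812795, RUNX1T1 was 2.47-fold higher in CD34hi CD41- than in CD34-CD41- cells, and 3.03-fold lower in CD34lo CD41lo than in CD34hi CD41-. By ILMN_1710522 CD34lo CD41lo was 2.30-fold lower than CD34hi CD41-, which came to -0.99 log2 units without background correction. Against CD34-CD41- the same probe was at least 5.62-fold higher in CD34hi CD41-, at least 2.95-fold in CD34lo CD41- and at least 2.45-fold in CD34lo CD41lo, the last of which came to 0.87 log2 units without background correction. With the authors' matrix values these came to 3.37, 2.31 and 1.98 log2 units, against 2.49, 1.56 and 1.29. The probes did not give the same order of CD34lo CD41lo and CD34-CD41-, since by ILMN_1812795 CD34lo CD41lo was the lowest of the 4. Another probe, ILMN_1723477, was detected in CD34hi CD41- cells alone (5.96), and ILMN_1694734 and ILMN_1724669 on no array.

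CBFA2T2, also called MTGR1, rose over the course. The probe ILMN_2331062 read 5.47, 5.46, 6.10, 6.52, 6.33, 6.87, 6.86, 7.10 and 6.96 from day 0 to day 8, and was not detected on day 1. Its fitted rise was 1.21 ± 0.25 from day 0 to day 4 (log2, SE, limma adjusted p = 0.0118) and 1.65 ± 0.29 from day 0 to day 8 (adjusted p = 0.00335), and the trend had an adjusted p of 0.00204. From day 4 to day 8 the change of 0.44 ± 0.25 did not pass. The first rise missed the call without background correction (0.83) and without the array of day 0 (adjusted p = 0.075), and the second without that of day 8 (adjusted p = 0.107). In the fractions CBFA2T2 ran opposite to RUNX1 at the ends, with 7.39 in CD34-CD41-, 6.62 in CD34lo CD41-, 6.12 in CD34hi CD41- and 5.77 in CD34lo CD41lo. It was 2.41-fold lower in CD34hi CD41- and 3.07-fold lower in CD34lo CD41lo than in CD34-CD41- cells, and the first of these came to -0.99 log2 units without background correction.

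The second CBFA2T2 probe, ILMN_1752404, was detected on day 7 alone (5.55) and stayed between 4.43 and 5.25 on the other days. Its trend passed (limma adjusted p = 0.0228) although 8 of its 9 levels were below detection, and the change of 0.76 ± 0.27 from day 0 to day 8 did not pass (adjusted p = 0.066). The trend was lost when the array of day 2, 5, 6 or 7 was left out (adjusted p = 0.0553, 0.0506, 0.0617 and 0.0819). With the authors' matrix values the rise from day 0 to day 8 passed (1.81, adjusted p = 0.0316). ILMN_2251895 was not detected on any array.

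CBFA2T3, also called ETO2 or MTG16, a corepressor found with TAL1 and GATA1 in red cell and megakaryocyte precursors, was detected in the CD34lo CD41lo fraction alone. Its probe ILMN_1657627 read 6.59 there, and 4.79 in CD34-CD41-, 4.91 in CD34lo CD41- and 4.91 in CD34hi CD41-. On the unsorted days it stayed between 4.48 and 5.14, below detection throughout. CD34lo CD41lo cells were at least 2.46-fold above CD34-CD41-, at least 2.41-fold above CD34lo CD41- and at least 2.30-fold above CD34hi CD41- cells. Without background correction these differences came to 0.88, 0.86 and 0.82 log2 units, under the 2-fold limit, and with the authors' matrix values to 2.0, 1.93 and 1.8. The other probes, ILMN_1720616 and ILMN_1771043, were not detected on any array.

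**Figure D2:**
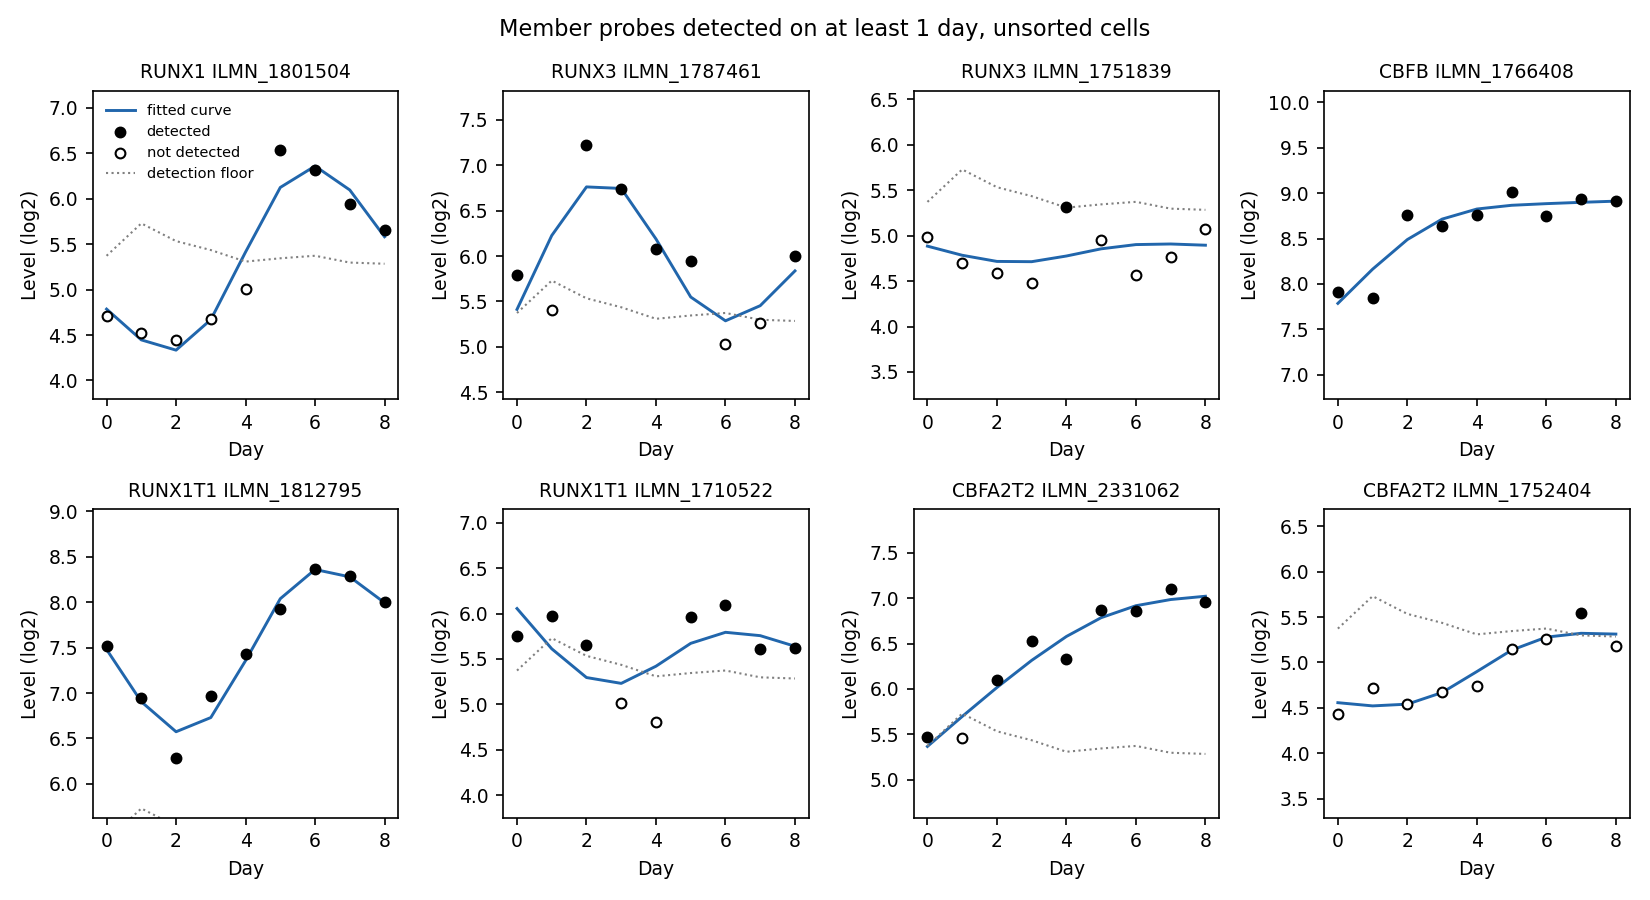
Normalized log2 level of the 8 probes detected on at least 1 unsorted day, against day, with each vertical axis spanning the same range. Filled points were detected, the blue line is the fitted spline and the dotted line the detection floor: RUNX3 peaks at 7.22 on day 2, when RUNX1T1 ILMN_1812795 is lowest (6.29), and RUNX1 first appears on day 5.

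Of the 21 probes, 8 passed the filter for the days, which kept a probe detected on at least 1 of the 9 arrays. A trend passed for 5 of these 8 (6 at an unadjusted p below 0.05), and 38.6% of all 22783 probes fitted had one. From day 0 to day 4, 2 of 8 rose against 5.97% of all probes, and from day 0 to day 8 also 2 of 8 against 11.2%. From day 4 to day 8 none of 8 passed in limma (1 at an unadjusted p below 0.05), where 7.34% of all probes passed in either direction. The median fitted change of the 8 was 0.49, 0.19 and 0.63 over the intervals of days 0 to 4, 4 to 8 and 0 to 8, and that of all probes -0.01, -0.05 and -0.05. Probes that enter through a single detected day had to differ between days, so these counts describe the set and test nothing about it. No probe passed as a fall in any interval. Of all genes, taken by their brightest probe, 5.92%, 2.63% and 10.2% fell over the same 3 intervals, so a set of 8 can hold none.

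The 2 calls from day 0 to day 4 became 0 without the array of day 0 and 1 without that of day 1, 2, 3 or 5. The 2 calls from day 0 to day 8 became 1 without day 0 or day 1 and 0 without day 8, and the 5 trends became 3 without day 7. Between neighbouring days 2 of 8 probes moved by 2-fold at any of the 8 steps, RUNX3 from day 1 to day 2 and RUNX1 from day 4 to day 5, against 16.4% of all probes.

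**Figure D3:**
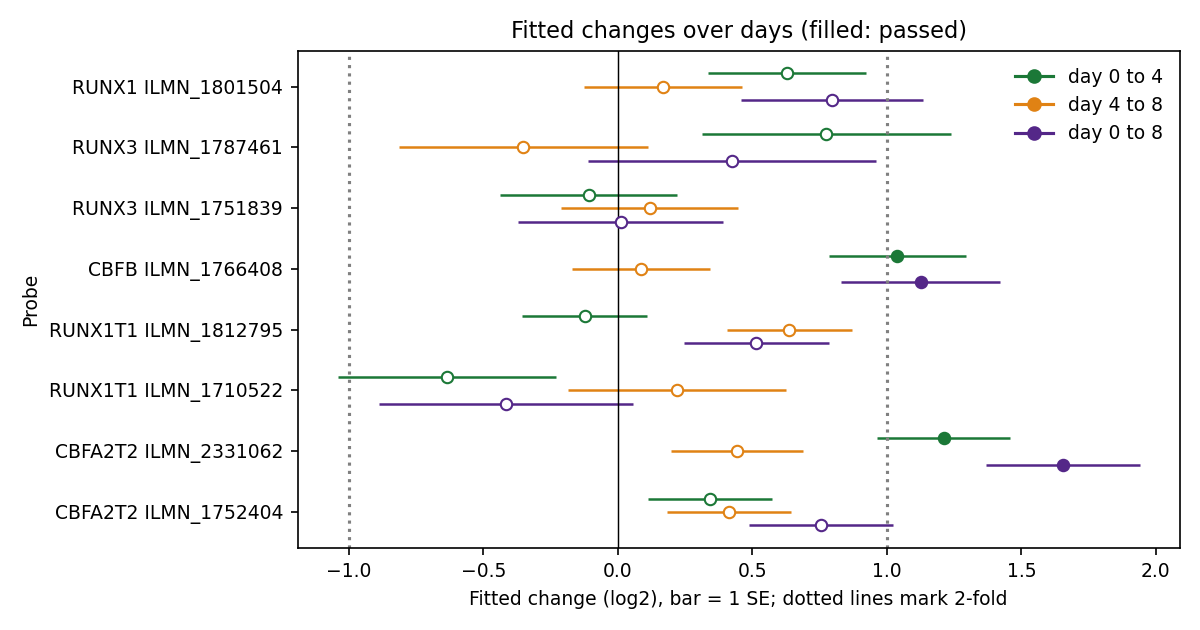
Fitted log2 change of each of the 8 probes from day 0 to 4, 4 to 8 and 0 to 8, with bars of 1 SE from the departure of single days from the curve. Filled points passed an adjusted p below 0.05 and 2-fold (dotted lines): CBFB and CBFA2T2 ILMN_2331062 pass from day 0 to 4 and from day 0 to 8, and no probe passes from day 4 to 8.

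In the fractions 5 of the 9 probes that passed the filter were 2-fold apart in at least 1 of the 6 pairs, against 27.3% of all probes, and 2 of 9 at 4-fold. The 5 were the RUNX1 probe, a pair of RUNX1T1 probes, and 1 probe each of CBFA2T2 and CBFA2T3. Against CD34-CD41- cells, 2 of 7 were higher in CD34lo CD41- (2.8% of all probes). In CD34hi CD41- cells 3 of 8 were higher (7.49%) and 1 of 8 lower (8.67%), and in CD34lo CD41lo cells likewise 3 of 8 were higher (9.17%) and 1 of 8 lower (10.8%). CD34hi CD41- and CD34lo CD41- differed in 0 of 7, where 8.38% of all probes did. CD34lo CD41lo stood above CD34lo CD41- in 2 of 7 (3.14%), and above CD34hi CD41- in 2 of 8 (5.82%) and below it in 2 of 8 (7.46%). These comparisons share arrays and are not independent of each other. The CBFA2T3 probe entered only through the fraction in which it was high, so these counts describe the set and test nothing about it.

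**Figure D4:**
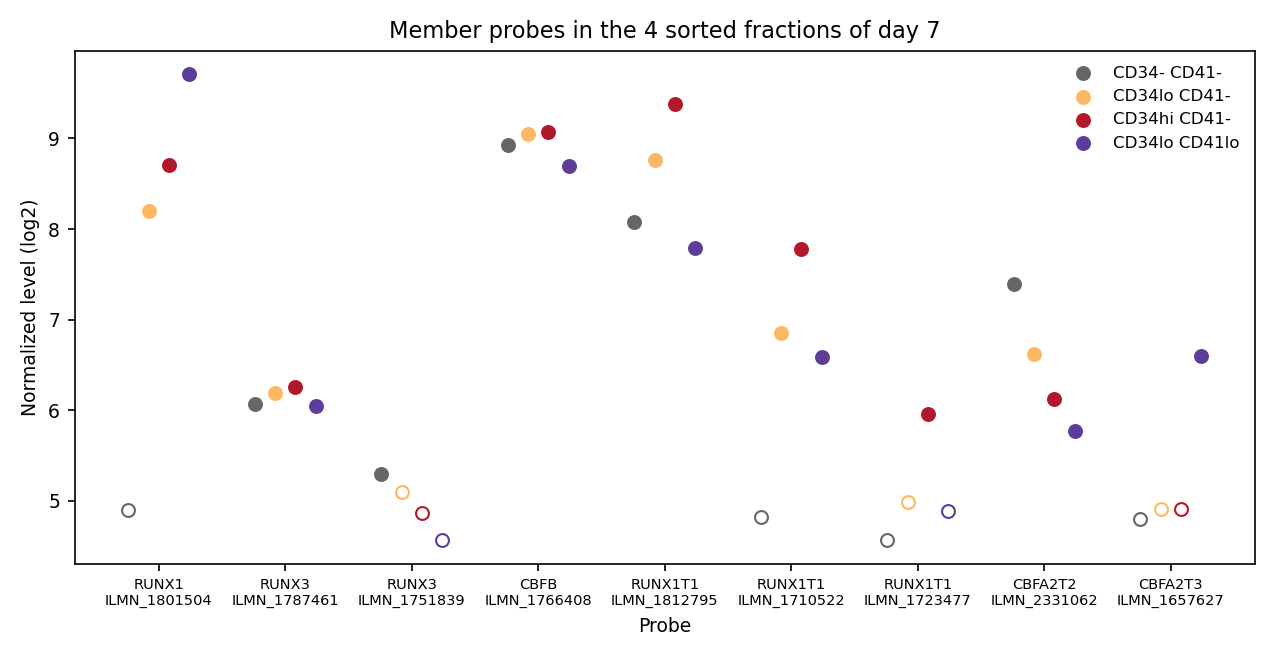
Normalized log2 level of the 9 member probes detected in at least 1 of the 4 day 7 fractions, with 1 point for each fraction. Filled points were detected and open points were not: RUNX1 and CBFA2T3 are highest in CD34lo CD41lo, RUNX1T1 in CD34hi CD41-, CBFA2T2 in CD34-CD41-, and CBFB and RUNX3 ILMN_1787461 stay within 2-fold.

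Markers of other cell types moved with the same fractions. Of the 12 endothelial markers 11 were 2-fold apart and all 11 were highest in CD34hi CD41-, the fraction with the highest RUNX1T1. The mean level of the endothelial list was 6.53 in CD34-CD41-, 8.17 in CD34lo CD41-, 10.23 in CD34hi CD41- and 7.61 in CD34lo CD41lo. Red cell markers had a mean level of 8.98, 10.12, 7.22 and 11.64 in the same order, with 9 of 10 highest in CD34lo CD41lo, the fraction with the highest RUNX1 and CBFA2T3. The mean of the 6 detected markers of megakaryocytes and earliest blood was 5.57, 6.52, 6.69 and 8.23, and that of 7 leukocyte markers 5.96, 6.97, 7.18 and 7.96. Of those 2-fold apart, 4 of 5 in each of these lists were highest in CD34lo CD41lo, against 30.3% of all genes 2-fold apart. In the megakaryocyte and earliest blood list the 4 include ITGA2B, the gene of a sort marker. Its level in CD34lo CD41lo is no result, and it enters the mean of that list. PF4, a platelet chemokine, and PTPRC, which encodes the pan-leukocyte antigen CD45, were not detected in any fraction. Mesenchyme markers had a mean of 10.01, 9.73, 8.18 and 6.97 and endoderm markers of 10.53, 9.67, 7.02 and 6.63. Both means were highest in CD34-CD41- cells, as was CBFA2T2. Of those 2-fold apart, 7 of 9 mesenchyme and 5 of 7 endoderm markers were highest there, against 40.7% of all genes 2-fold apart. The part of these cell types in the levels of the members was not tested.

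Over the days these lists also moved. The mean of 8 pluripotency markers was 10.68 on day 0, 9.78 on day 2 and 6.25 on day 8. That of the endothelial markers was 5.28 on day 0, 6.16 on day 4 and 7.31 on day 5, the day on which RUNX1 was first detected, and 7.98 on day 6, when RUNX1T1 was highest. Mesenchyme markers went from 6.35 at the start to 10.37 on day 8, and endoderm markers from 5.51 to 11.16, beside the rise of CBFA2T2. Their part in these changes was not tested.

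Genes with the pattern most like a member were ranked by Pearson correlation of levels over the 13 arrays, among 11120 genes. For RUNX1 they were TAL1 (0.988), a factor that blood formation requires, NXF3 (0.986), CLEC11A (0.981), a growth factor for blood progenitors, PTGS1 (0.978), a cyclooxygenase abundant in platelets, and MS4A3 (0.974), a membrane protein of myeloid precursors. TAL1 read 6.11 on day 5 and 5.40 on day 7, and 4.84, 7.58, 7.38 and 8.55 in the fractions from CD34-CD41- to CD34lo CD41lo. For RUNX1T1 they were LOC652377 (0.964), LIMCH1 (0.961), S100A16 (0.960), C2CD2 (0.954) and C1orf54 (0.953), of which LIMCH1 was also highest in CD34hi CD41- (11.26) and lowest on day 2 (4.58).

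For CBFA2T2 the closest were SDHAP2 (0.979), CYP4X1 (0.958), the sphingosine phosphate receptor S1PR3 (0.956), the endothelin receptor EDNRA (0.953) and the retinoid receptor RXRA (0.952). For CBFB they were the BMP receptor BMPR2 (0.966), HAPLN1 (0.948), USP3 (0.945), COL5A1 (0.945) and TBC1D9 (0.945). BMPR2 read 5.74 on day 0, 6.02 on day 1 and 7.62 on day 2. For RUNX3 the correlations were lower, among them TCHP (0.852), LOC647597 (0.844), EIF3K (0.818) and LOC100133473 (0.798). All these points share the line and the normalization, and 9 of the 13 come from 1 course, so the coefficients describe these arrays. Levels below detection entered as measured, which for RUNX1 were those of days 0 to 4 and of CD34-CD41- cells. RUNX2 and CBFA2T3 were detected on too few arrays to be ranked.

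The genes around the members were described by 5 lists, each through the brightest probe of a gene. The lists share members, among them GFI1, TAL1, LYL1 and LMO2. Leaving out the array of any day from 1 to 7 moved no count of risers or fallers in a list by more than 2, and the larger moves without day 0 or day 8, the ends of the curve, stand beside the counts. Of all 17657 genes fitted, 6.31% rose and 5.92% fell from day 0 to day 4, 4.94% rose and 2.63% fell from day 4 to day 8, and 11.8% rose and 10.2% fell from day 0 to day 8. In the fractions 27.7% of all genes were 2-fold apart in at least 1 pair.

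Blood transcription factors beside RUNX1 had 16 of 18 genes fitted. Between day 0 and day 4, 6 rose and none fell, none moved from day 4 to day 8, and 7 rose and none fell from day 0 to day 8. The 6 became 0 without the array of day 0, and the 7 became 2 without day 0 and 1 without day 8, each in limma. LYL1, a paralog of TAL1, rose by 4.54 ± 0.78 from day 0 to day 8 (log2, SE, limma adjusted p = 0.003), and LMO2, the bridging protein of the TAL1 complex, by 4.24 ± 0.71 (0.003). NFE2, a factor of megakaryocytes and red cells, rose by 3.45 ± 0.34, MEIS1 by 3.22 ± 0.56 and HHEX by 3.05 ± 0.72 over the same days. GATA2, which stem and progenitor cells of blood need, rose by 2.71 ± 0.40 from day 0 to day 4. It read 8.65 on day 5 and 6.60 on day 8.

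In the fractions 17 of the 18 blood factors were 2-fold apart, and of these 13 were highest in CD34lo CD41lo, as RUNX1 was, and 4 in CD34hi CD41-. Over all genes 2-fold apart, 30.3% were highest in CD34lo CD41lo, 26.9% in CD34hi CD41- and 40.7% in CD34-CD41-. GFI1, a repressor that RUNX1 activates in haemogenic endothelium of the mouse, read 5.22, 9.22, 7.36 and 9.58 from CD34-CD41- to CD34lo CD41lo. SPI1, the myeloid factor PU.1, read 4.60, 7.11, 5.93 and 8.51, and MYB 7.61, 11.20, 11.23 and 11.68. FLI1, an ETS factor of endothelium and megakaryocytes, had another order, with 6.41, 9.61, 10.78 and 9.55. RUNX1 was higher in CD34hi CD41- than in CD34lo CD41-, whereas GFI1 and SPI1 were lower there.

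**Figure D5:**
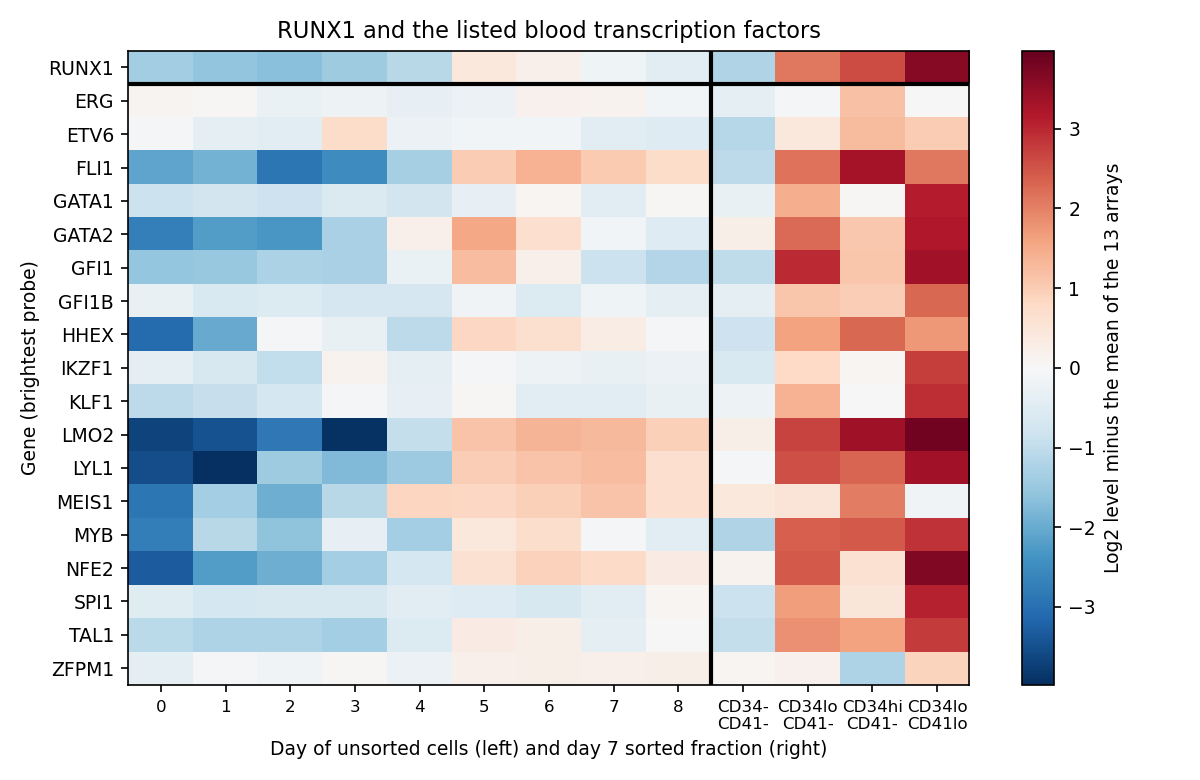
Log2 level of RUNX1 (probe ILMN_1801504) and of the 18 listed blood transcription factors (brightest probe of each) on the 13 arrays, each row given as the difference from its own mean. Red is above and blue below that mean: RUNX1 and most factors are highest in CD34lo CD41lo, and ERG, ETV6, FLI1, HHEX and MEIS1 in CD34hi CD41-.

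RUNX1 blood targets, genes described as bound or regulated by RUNX1 in blood cells, had 16 of 23 genes fitted. From day 0 to day 8, 6 rose and 3 fell, and from day 0 to day 4, 4 rose and 2 fell. Later, from day 4 to day 8, 3 rose and none fell. Without the array of day 0 the 6 and 3 became 2 and 0, and the 4 and 2 became 0 and 0. Without that of day 8 the 6 and 3 became 2 and 1, and the later 3 became 1. CEBPA, a factor of granulocytes and liver, rose by 4.23 ± 0.25 from day 0 to day 8, and MYL9, a myosin light chain of platelets and smooth muscle, fell by 2.56 from day 0 to day 4 (SE 0.5, limma adjusted p = 0.01). PRKCH rose by 1.93 ± 0.34 from day 4 to day 8, and PRKCQ fell by 1.93 (SE 0.35) from day 0 to day 8.

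In the fractions 16 of 18 of these targets were 2-fold apart, 12 of them highest in CD34lo CD41lo, where 30.3% of all genes 2-fold apart were highest. PRKCH was highest in CD34hi CD41- (10.43), and CEBPA in CD34-CD41- (9.25), where RUNX1 was not detected. The 12 include ITGA2B, the gene of a sort marker, whose level in CD34lo CD41lo is no result. SPN, which encodes the leukocyte antigen CD43, read 7.40, 7.81, 7.30 and 9.21 from CD34-CD41- to CD34lo CD41lo.

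ETO complex partners had 20 of 22 genes fitted. Up to day 4, 4 rose and none fell, none moved from day 4 to day 8, and 4 rose and none fell from day 0 to day 8. Without the array of day 0 the counts of risers became 1 and 2, and without day 8 the later one became 0. Beside LYL1 and LMO2, TBL1X, a subunit of the NCOR complex, rose by 1.51 ± 0.25 from day 0 to day 4, and TCF4, an E protein, by 1.18 ± 0.28. ZBTB16, the repressor PLZF, rose by 1.05 ± 0.23 from day 0 to day 8, although it was detected on day 8 alone (5.63). In the sorted cells ZBTB16 read 8.04 in CD34lo CD41lo against 5.76 in CD34-CD41-. In the fractions 7 of 22 were 2-fold apart, a share near that of all genes (27.7%). Of the 7, 6 were highest in CD34lo CD41lo, as were 30.3% of all genes 2-fold apart, and 1 in CD34hi CD41-. None was highest in CD34-CD41-, where CBFA2T2 was.

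RUNX cofactors had all 20 genes fitted. Over days 0 to 4, 4 rose and 1 fell, 1 rose and 1 fell from day 4 to day 8, and 5 rose and 1 fell from day 0 to day 8. Without day 0 the first pair became 1 and 0 and the last 2 and 0. Without day 1 the last became 3 and 1, without day 5 the first became 2 and 2, and without day 8 the last became 0 and 0. The corepressor TLE3 rose by 1.91 ± 0.29 from day 0 to day 4 and fell by 1.85 (SE 0.29) from day 4 to day 8. HIPK2, a kinase of RUNX1, rose by 1.95 ± 0.37 and SMAD5, a transducer of BMP signals, by 1.5 ± 0.24 from day 0 to day 8, as did the ETS factor ELF1 by 1.61 ± 0.31. JUN fell by 2.28 from day 0 to day 4 (SE 0.37). In the fractions 7 of 20 were 2-fold apart, against 27.7% of all genes. Of the 7, 4 were highest in CD34-CD41-, 2 in CD34hi CD41- and 1 in CD34lo CD41lo. Over all genes 2-fold apart these shares were 40.7%, 26.9% and 30.3%. ETS1, which binds DNA together with RUNX1, was highest in CD34hi CD41- (12.81), and YAP1 was 10.35 in CD34-CD41- and 7.33 in CD34lo CD41lo.

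RUNX2 skeletal targets and partners had 10 of 14 genes fitted, although no RUNX2 probe was detected. From day 0 to day 8, 4 rose and 1 fell, with 1 riser without day 0 or day 8, and from day 0 to day 4, 2 rose and 1 fell. From day 4 to day 8, 3 rose and 1 fell, and without day 8 neither was called. COL1A2, a chain of type I collagen, rose by 3.60 ± 0.28 and COL1A1 by 2.22 ± 0.45 from day 0 to day 8. MSX2, a homeobox factor of skull and limb, rose by 3.65 ± 0.40 from day 0 to day 4, and SPP1, which encodes osteopontin, fell by 6.06 (SE 0.34). In the fractions 8 of 9 were 2-fold apart, and 7 of these were highest in CD34-CD41-, as were 40.7% of all genes 2-fold apart. Among them were DLX5 (8.17 there, and 5.21, 4.34 and 4.45 in the others) and ALPL (10.90).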

How the data were processed

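RNA of 13 samples was measured on Illumina arrays, 1 per day or fraction. The deposited intensities were background-subtracted by the authors and not normalized between arrays, and deposited detection values, so named per the file headers, are fractions from 0 to 1. The authors' deposited matrix holds log2 values with a median of 3.34 on each array, made by a transformation that the sources used here do not name. GenomeStudio 2010.2 and lumi were used, per the submitters' processing notes.

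Intensities were normalized jointly with neqc of limma 3.58.1 (R 4.3.3, offset 16), and detection p was taken as 1 minus the detection value. Of 47231 probes 1 without values was dropped. Symbols were current for 27035 probes, updated for 4649 through RefSeq synonyms, unmatched for 12276 and absent for 3270. Detection floors ran from 5.29 to 5.73, and precision is limited by the number of arrays. Probes detected on at least 1 of the 9 days were fitted in limma on day as a natural spline (3 degrees of freedom, 5 residual), and p-values were adjusted by Benjamini-Hochberg over 22783 probes. The code was tested on simulated data. The p-values measure departure from a curve within 1 course. Fractions were compared at 2-fold with undetected sides at the floor.

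Named were all member probes, the 5 closest genes in pattern per member detected on at least 3 arrays, and, per list, at most 6 genes with the largest changes that passed and 4 with the largest range over fractions, of which 2 genes are not reported here. The members and lists were chosen with earlier results of these data known. Alternatives were other normalizations, filters, splines and folds, a robust prior, and leaving out each day.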

Additional observations from a re-analysis of the deposited data

How the results depend on the processing

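The 7 fitted changes of member probes that passed under at least 1 setting and the 16 differences of 2-fold between fractions kept their sign under the alternatives run. Those of RUNX3, the fractions of CBFB and the other fitted changes were not recomputed by sign. Probes changed from day 0 to day 4 (2 of 8) came to 0 with quantile normalization without background correction, to 1 with a spline of 2 degrees of freedom, and to between 0 and 2 when each day was left out in turn. Those changed from day 0 to day 8 (2 of 8) came to 4 with the deposited matrix values, to 4 with the spline of 2 degrees of freedom, and to between 0 and 2 when days were left out. The trends (5 of 8) came to between 3 and 6 when days were left out. Between fractions 5 probes were 2-fold apart and 2 were 4-fold apart. Without background correction 1 of the 5, the CBFA2T3 probe, was under 2-fold in every pair. Between neighbouring days the 2 probes came to 1 without background correction and to 0 at 4-fold. The cause of these differences was not tested. Of the 30 list counts, 14 moved by over 1.5 times without day 0 and 12 without day 8, the ends of the curve, 7 without day 3, 6 without day 5, 7 with the deposited matrix values, 6 with the spline of 2 degrees of freedom and 5 without background correction, and none of the alternatives turned the balance of risers and fallers in a list. Changes below the detection floor are bounds, which limits RUNX1 before day 5, CBFA2T3 outside CD34lo CD41lo and RUNX2 throughout. No paired analysis was possible because the samples carry no replicate numbers.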
